A study of Saccharomyces cerevisiae BY4741 with 4 samples.

Results

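The genes described here encode the machinery that holds and moves chromosomes at mitosis in budding yeast: the inner and outer kinetochore, the Dam1 ring, the Ctf19 complex, the chromosomal passenger complex, the spindle checkpoint, cohesin with its loaders, and condensin. They were taken by systematic name from a list of 54 genes. No measured value entered that rule, but the list was made with earlier results of these data known. Of the 54, 49 had an H3K4me3 level in both strains, among 5038 such genes in all. CSE4, CBF2, MAD1, MAD3 and PDS5 were not analysed here. H3K4me3 (histone H3 trimethylated on lysine 4) had been measured by chromatin immunoprecipitation and sequencing in log-phase cultures in YPD, harvested at an optical density of 0.6. Wild type was BY4741, a MATa laboratory strain whose marker deletions include his3Δ1, leu2Δ0 and ura3Δ0. The other strain was BY4741-spp1Δ, in which the drug resistance cassette KanMX6 replaced SPP1. The sources used here do not say whether the deletion strain was 1 clone. Of the 4 libraries in the series, the levels of 2 were used, the H3K4me3 library of each strain. Schizosaccharomyces pombe cells, 25% by volume, served as the spike-in for both.

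The kinetochore is built on each centromere and ties the chromosome to the spindle microtubules. Proteins that bind centromere DNA recruit the inner kinetochore, the outer kinetochore binds the microtubule, and in yeast the Dam1 ring holds it there. The spindle checkpoint delays anaphase until every kinetochore is attached, cohesin holds sister chromatids together until then, and condensin compacts the chromosomes. In this organism H3K4 is methylated by COMPASS, a complex that travels with early transcribing RNA polymerase II, so the mark lies over the 5′ part of transcribed genes. Spp1 is the PHD finger subunit of COMPASS and is known to be needed for much of its trimethylation. The values below concern H3K4me3 on the genes that encode the segregation machinery, and not at the centromeres where their products act.

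With 1 library for each strain, differences between strains have neither replicates nor p-values, and the sources used here do not give read depth. SPP1, looked at as a check of the label, had levels of 1.89 and 0.0982. The ratio of strains rests on the authors' scaling, which per the series text used the spike-in, while a factor common to a whole library cancels when genes are compared with each other. The median of all genes was 2.01 in wild type and 0.494 without Spp1, and the median gene kept 26.3% of its wild-type level, a log2 ratio of -1.93. The sources used here do not say whether the deposited level is an average per base, so levels of different genes are compared in the authors' unit. Across the 4938 genes with an annotated length, the wild-type level had a Spearman correlation of 0.12 with that length.

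The median segregation gene carried slightly more H3K4me3 than the median of all genes in wild type, and slightly less without Spp1. Their median level was 2.10 in wild type, with a range from 0.935 (MIF2) to 2.74 (DAM1), and 0.469 in the deletion strain, with a range from 0.234 (MIF2) to 0.965 (NNF1). All 49 were lower in the deletion strain than in wild type, as was every other gene not on chromosome IV left, and no gene off that arm lay above 91.7% of wild type. The median member kept 22.3% of its wild-type level, or -2.17 as a log2 ratio, with a 95% interval over the 49 genes of -2.24 to -2.0. That is 0.24 below the median of all genes on the log2 scale (difference -0.24). The interval is one of the median, takes the genes as independent, and does not cover cultures. The members themselves spread more widely, with the middle 50% between -2.33 and -1.84. Below 25% of the wild-type level lay 32 of the 49 members (65.3%), against 44.6% of all genes. At or above 50% lay 1 member, SPC24 (2.04%), against 6.17% of all genes. Several members sat at the 25% line: MTW1 lay at 24.8% and DUO1 at 25.0%, just under it, with MIF2 at 25.04%, just above. Of the 49, 35 had a ratio below the median of all genes and 14 had one at or above it.

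**Figure D1:**
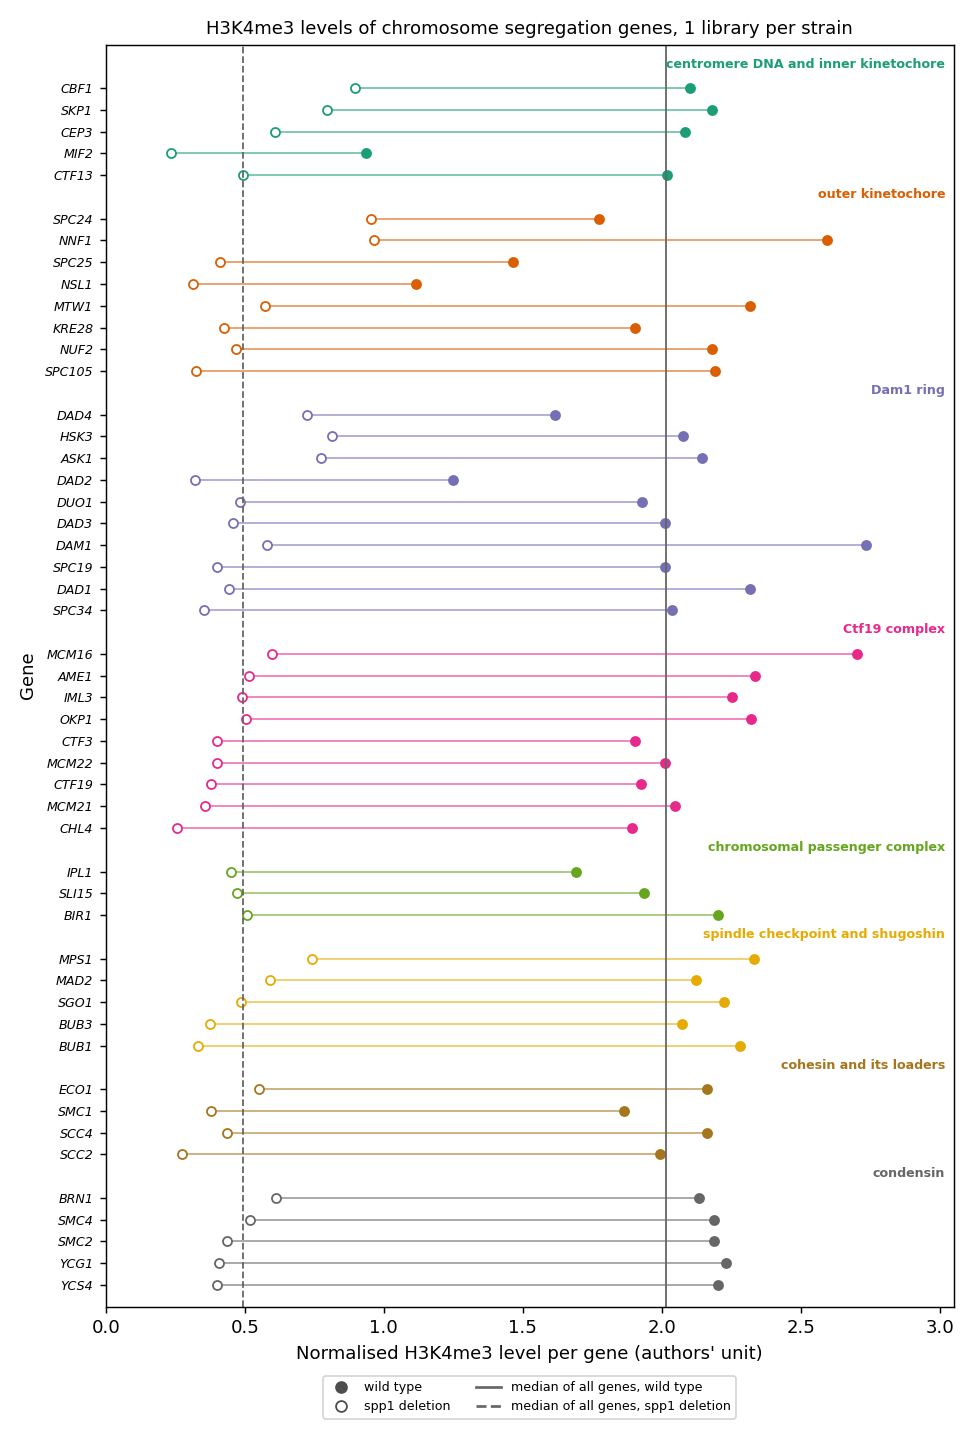
Normalised H3K4me3 level per gene (horizontal axis, the authors' unit) for the 49 members by role, with a filled point for the wild-type library and an open point for the spp1 deletion library. Grey vertical lines give the medians of all genes, 2.01 in wild type (solid) and 0.494 in the deletion strain (dashed), and every open point lies left of its filled point.

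The centromere DNA and inner kinetochore genes had the highest median ratio of the 8 role groups. Of 7 genes, 5 had both levels, with a median of 29.1% of wild type. Of these 5, 1 lay below 25% (20%, against 44.6% of all genes). CBF1 encodes a helix-loop-helix protein that binds the CDEI element of centromeres and also the promoters of methionine genes. Its level was 2.10 in wild type and 0.896 without Spp1, 42.6%. SKP1, whose product serves both in the CBF3 complex on centromere DNA and in SCF ubiquitin ligases, had levels of 2.18 and 0.796, or 36.5%. The other CBF3 subunit genes lay closer to the middle of all genes. CEP3, a zinc cluster subunit, had levels of 2.08 and 0.607 (29.1%), and CTF13, an F-box subunit, had 2.02 and 0.492 (24.4%). MIF2 (YKL089W, chromosome XI, 273394 to 275043), the yeast CENP-C, was the least marked member in either library, with levels of 0.935 and 0.234. In wild type 8.0% of all genes lay at or below it, and it was the only member under the 10th percentile of wild-type level, 1.10. Its ratio of 25.04% lay near the median of all genes.

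The genes of the outer kinetochore differed more among themselves than those of the 7 other role groups. Their standard deviation of log2 ratios, 0.56 over 8 genes, was near that of all genes (0.55). The median of these 8 genes was 26.3%, the same as that of all genes, and 4 of the 8 lay below 25%, close to the 44.6% of all genes. SPC24 and SPC25 encode the globular partners that anchor the Ndc80 complex to the rest of the kinetochore. SPC24 (YMR117C, XIII, 501250 to 501891) was at 1.78 in wild type and 0.954 without Spp1, 53.7%, the highest ratio of all members. SPC25 had levels of 1.47 and 0.410, or 28.0%. NUF2, the partner of Ndc80 in microtubule binding, had 2.18 and 0.469, or 21.5%. Genes for this 1 complex thus ran from well above to below the median ratio of all genes. NDC80 itself had a wild-type level of 2.68 and no level in the deletion strain.

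Genes of the Mtw1 complex, which links the inner to the outer kinetochore, were spread in level more than in ratio. NNF1 had 2.59 in wild type and 0.965 without Spp1 (37.2%), while NSL1 had 1.12 and 0.313 (28.0%). MTW1 had 2.32 and 0.574. DSN1, the remaining gene of this complex, had a wild-type level of 2.39 and no level in the deletion strain. SPC105, which encodes the scaffold that the checkpoint proteins bind, stood at the other end of the group. Its level was 2.19 in wild type and 0.325 without Spp1, 14.8%, a ratio that 3.43% of all genes had or were below. KRE28, the partner of Spc105, lay at 22.3% with levels of 1.90 and 0.424.

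The 10 genes of the Dam1 ring had a median of 23.9% of wild type, and 6 of the 10 lay below 25%, against 44.6% of all genes. They separated into 3 with ratios above the median of all genes and 7 below it. DAD4, one of the smallest genes in the list at 219 bp, had levels of 1.62 and 0.724, or 44.8%. HSK3, at 210 bp the smallest member, had 2.08 and 0.814, or 39.2%. ASK1, a target of the cyclin-dependent kinase, had 2.15 and 0.776, or 36.2%. The other 7 lay between 17.3% and 25.6%, with no ring gene between 25.6% and 36.2%. DAM1 (YGR113W, VII, 718893 to 719924), which encodes the subunit phosphorylated by Ipl1 and gives the ring its name, was the most marked of all members in wild type at 2.74. In wild type 99.2% of all genes lay at or below it, and in the deletion strain, at 0.581, 61.7% did. DAD1 had 2.32 and 0.443 (19.1%). SPC34 had 2.04 and 0.352, the lowest ratio of the ring. SPC19 lay at 19.8% (2.01 and 0.399), DAD3 at 22.8% (2.01 and 0.459), DUO1 at 25.0% (1.93 and 0.482) and DAD2 at 25.6% (1.25 and 0.321). The smallest ring genes, HSK3 and DAD4, had its highest ratios, while DAD1 and DAD3, both of 285 bp, lay in the lower set. The part of size in these ratios was not tested.

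The Ctf19 complex, the inner kinetochore assembly that corresponds to the constitutive centromere-associated network of animals, was the most uniform of the larger groups. All 9 genes in the list lay below 25% of wild type, against 44.6% of all genes. They lay between 13.5% and 22.2%, with a median of 21.0% and a standard deviation of log2 ratios of 0.23. Over all genes that standard deviation was 0.55. OKP1 and AME1, which form an essential heterodimer that binds the Mtw1 complex, were alike in both libraries. OKP1 had levels of 2.32 and 0.504 (21.7%), and AME1 had 2.34 and 0.516 (22.1%). Their partners in the COMA complex lay lower. CTF19 had 1.92 and 0.379 (19.7%), and MCM21 had 2.05 and 0.358 (17.5%). Further genes of this network that are not in the list spread more widely: NKP2 lay at 13.0%, MHF2 at 17.5%, CNN1 at 18.2%, WIP1 at 21.3%, NKP1 at 22.9% and MHF1 at 33.1%, above the median of all genes. MHF2 is on the left arm of chromosome IV, where ratios scattered more widely than elsewhere. CTF19 was the only member whose annotated span overlaps another annotated gene.

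CHL4 and IML3 encode a further pair of the Ctf19 complex, which acts in loading cohesin around centromeres. They differed from each other. CHL4 (YDR254W, IV, 965113 to 966489) had levels of 1.89 and 0.256, or 13.5%, the lowest ratio of all members, and 1.73% of all genes had a ratio at or below it. IML3 had 2.25 and 0.490, or 21.7%. CTF3, MCM16 and MCM22 encode a trimer of the complex. Their ratios were close together, at 21.0%, 22.2% and 19.8%. Their levels were not: MCM16 was the second most marked member in wild type at 2.70 (0.599 in the deletion strain), against 1.90 for CTF3 (0.40) and 2.01 for MCM22 (0.399).

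The chromosomal passenger complex corrects faulty attachments through its kinase, Aurora B. Its 3 genes lay near the middle of all genes. IPL1, the kinase gene, had levels of 1.69 and 0.451, or 26.7%. SLI15, the INCENP homologue, had 1.94 and 0.473 (24.4%), and BIR1, the survivin homologue, had 2.20 and 0.508 (23.1%). The levels in the deletion strain lay within a narrow range, from 0.451 to 0.508, while those in wild type ran from 1.69 to 2.20.

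Of the 7 genes of the spindle checkpoint and shugoshin, 5 had both levels, with a median of 21.9%. Of these 5, 3 lay below 25% (60%, against 44.6% of all genes). The wild-type levels of the 5 were all above the median of all genes, from 2.07 to 2.33. MPS1, the kinase that starts checkpoint signalling, had 2.33 and 0.742, or 31.9%. It was the only member on the left arm of chromosome IV, where ratios scattered more widely (standard deviation of log2 ratios 1.06 over 212 genes, against 0.52 over genes elsewhere), and the part of the arm in its ratio was not tested. MAD2, whose product inhibits Cdc20, had 2.13 and 0.592, or 27.8%. BUB1 and BUB3, whose products bind Spc105 together, lay lower. BUB1 had 2.28 and 0.333, or 14.6%, a ratio that 3.0% of all genes had or were below. BUB3 had 2.07 and 0.376, or 18.1%. SGO1 (shugoshin), which is recruited by the histone mark that Bub1 makes, had 2.22 and 0.487, or 21.9%. SPC105, BUB1 and BUB3, whose products meet in 1 assembly, thus all lay at or below 18.1% of wild type, a grouping made after their values were seen.

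Cohesin and its loaders had 4 of 5 genes with both levels, at a median of 20.2%. Of these 4, 3 lay below 25% (75%, against 44.6% of all genes). SCC2, the large subunit of the loader, had 1.99 and 0.275, or 13.8%, the second lowest ratio of all members. SCC4, its partner in the loader, had 2.16 and 0.435, or 20.1%. SMC1, a core ATPase of the ring, had 1.86 and 0.377, or 20.2%. ECO1, the acetyltransferase that establishes cohesion during replication, had 2.16 and 0.551, or 25.5%. In wild type SCC2 was marked much as the median gene and SCC4 somewhat more, with 47.5% and 66.6% of all genes at or below them. SCC2 was among the least marked 16.3% of genes in the deletion strain.

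The 5 condensin genes had a median ratio of 19.9%, and 4 lay below 25% (80%, against 44.6% of all genes). That was the lowest median of the 8 role groups as measured, but cohesin lay lower with means (-0.48 against -0.34, as differences of log2 ratio from all genes) and after background subtraction (-0.52 against -0.51), and the Ctf19 complex with means (-0.46) and with length-class medians subtracted (-0.37 against -0.34). They were nearly equal in wild type, from 2.14 to 2.23, and in the deletion strain they ran from 0.401 to 0.614. YCS4 and YCG1, which encode the HEAT repeat subunits, were alike. YCS4 had 2.20 and 0.401 (18.2%), and YCG1 had 2.23 and 0.407 (18.2%). SMC2 and SMC4, the ATPase pair, had the same wild-type level to 2 decimals, 2.19, and levels of 0.434 and 0.517 in the deletion strain. BRN1, the kleisin, kept the most, with 2.14 and 0.614, or 28.7%.

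Set side by side, the role groups had median log2 ratios that differed from that of all genes by 0.15 for the centromere DNA and inner kinetochore group, by -0.14 for the Dam1 ring and by -0.11 for the passenger complex. The difference was -0.27 for the checkpoint and shugoshin, -0.32 for the Ctf19 complex, -0.38 for cohesin and its loaders and -0.41 for condensin. The outer kinetochore did not differ from all genes at 2 decimals, and its sign turned with several settings. These differences moved with the processing: that of the Dam1 ring ran from -0.052 with level-class medians subtracted to -0.45 among genes in the upper 50% of wild-type levels, that of the passenger complex from -0.021 to -0.33 (1 gene left) under the same settings, and that of the inner kinetochore group reached 0.34 without MIF2, which lay under the 10th percentile of wild-type level. The groups overlapped: apart from the Ctf19 complex, the highest member of every group lay above the lowest inner kinetochore gene. Of the 9 listed Ctf19 complex genes the highest, MCM16 at 22.2%, lay below all 5 inner kinetochore genes, the lowest of which was CTF13 at 24.4%. With 3 to 10 genes in a group and 1 library per strain, no test of these differences was made.

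**Figure D2:**
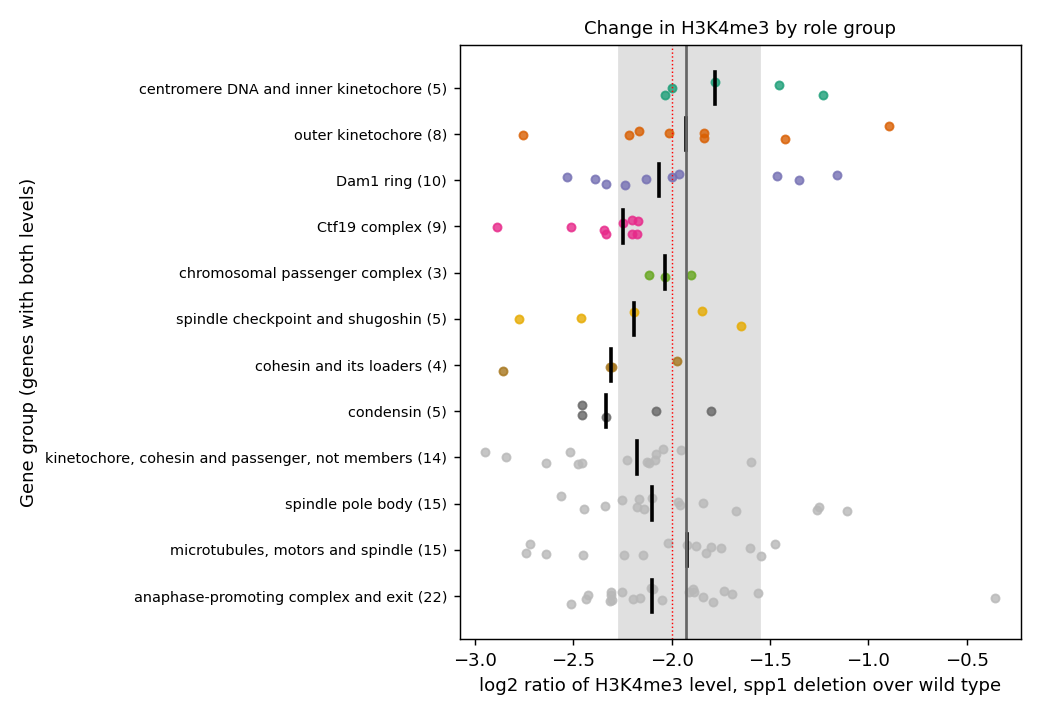
Log2 ratio of the H3K4me3 level in the spp1 deletion strain over wild type (horizontal axis) for each gene with both levels, by role group and, in light grey, for 4 other lists of mitosis genes. Black bars are group medians, the grey line and band are the median and the middle 50% of all genes (median -1.93), and the dotted line marks 25% of wild type. All 9 Ctf19 complex points lie left of the dotted line.

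Ranks among all genes show the same data free of any factor common to a library. The median member had 60.0% of all genes at or below it in wild type, against 46.1% without Spp1. Of the members, 32 had a lower rank without Spp1 and 17 a higher one, against 2586 lower and 2450 higher among all 5038 genes. The members also kept less of their own order. Over the 49 members the Spearman correlation between the libraries was 0.42, against 0.75 over the 4938 genes with an annotated length. Members span a narrower range of wild-type levels than all genes do (standard deviation of log2 level 0.28 against 0.59), and the part of that range in the correlation was not tested. The largest moves down were those of BUB1, from percentile 79.1 to 25.4, and SPC105, from 70.3 to 24.0. DAD1 went from 82.3 to 41.9, YCG1 from 74.2 to 36.4 and DAM1 from 99.2 to 61.7. The largest moves up were those of SPC24, from 29.8 to 90.9, and DAD4, from 21.6 to 77.3. CBF1 went from 60.0 to 89.0 and HSK3 from 56.8 to 84.4.

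**Figure D3:**
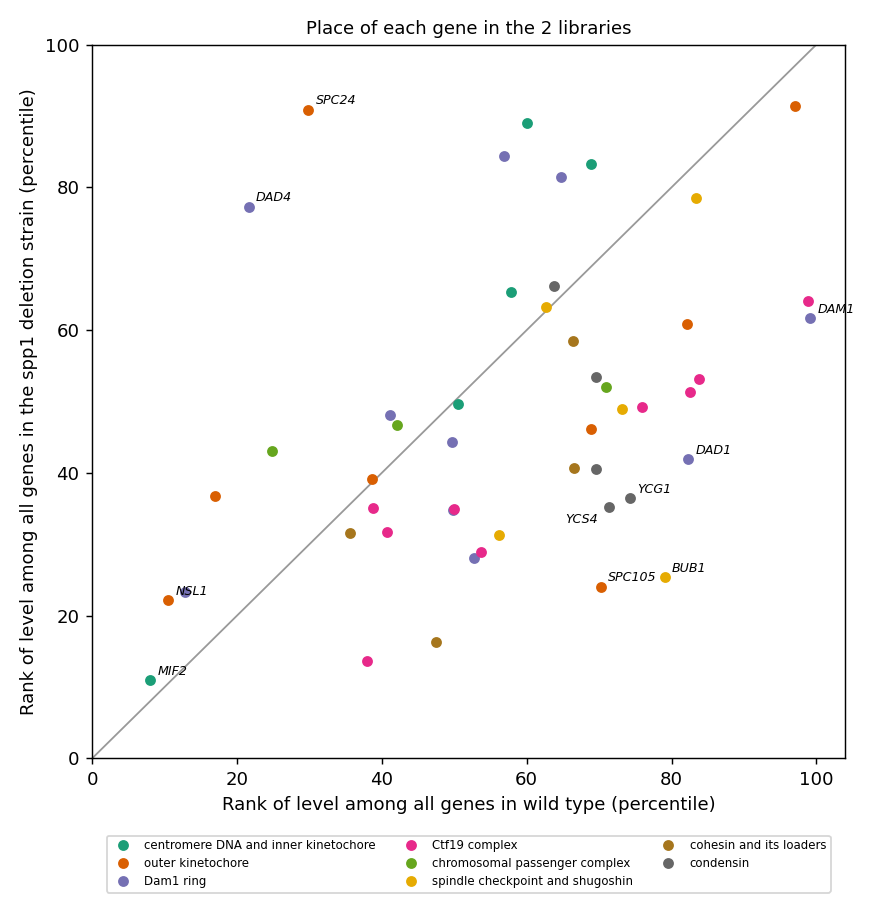
Rank of each member's level among all 5038 genes, as a percentile, in the wild-type library (horizontal axis) and in the spp1 deletion library (vertical axis), coloured by role. Points on the grey line hold the same rank in both, 32 of the 49 members lie below it, and SPC24 and DAD4 stand far above it.

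The members ran from 210 bp (HSK3) to 4482 bp (SCC2), and long members kept less of the mark than short ones. The 21 members under 1000 bp had a median of 25.5% of wild type, the 15 members from 1000 to 2000 bp had 21.7%, and the 13 members over 2000 bp had 20.2%. Below 25% lay 10 of the 21, 11 of the 15 and 11 of the 13. All genes in the same classes had medians of 27.9%, 25.9% and 25.1%, with 40.2%, 46.3% and 49.3% of them below 25%. The members thus lay below all genes in each class, by -0.13, -0.26 and -0.31 on the log2 scale. Over the 49 members the Spearman correlation of the log2 ratio with length was -0.42, against -0.11 over the 4938 genes. With the level itself, length had a correlation of 0.14 (wild type) and -0.29 (without Spp1) over the members, and of 0.12 and -0.00042 over all genes. These genes share 2 libraries and are not independent replicates. The length gradient and the roles run together, since the 5 condensin genes and the cohesin genes SMC1 and SCC2 are over 2000 bp and the Dam1 ring genes are short (median 450 bp), and the 2 cannot be told apart between those groups. The Ctf19 complex, with a median of 1110 bp, lies in neither extreme. With the median of each of 10 length classes subtracted, the members' difference from all genes was -0.22. The same step brought the Dam1 ring (-0.26), condensin (-0.34) and cohesin with its loaders (-0.33) closer to each other, against -0.14, -0.41 and -0.38 without it. It did not draw the role groups together as a whole. The highest and lowest group differences were 0.15 (inner kinetochore group) and -0.41 (condensin) without it. With it they were 0.19 (inner kinetochore group) and -0.37 (Ctf19 complex).

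**Figure D4:**
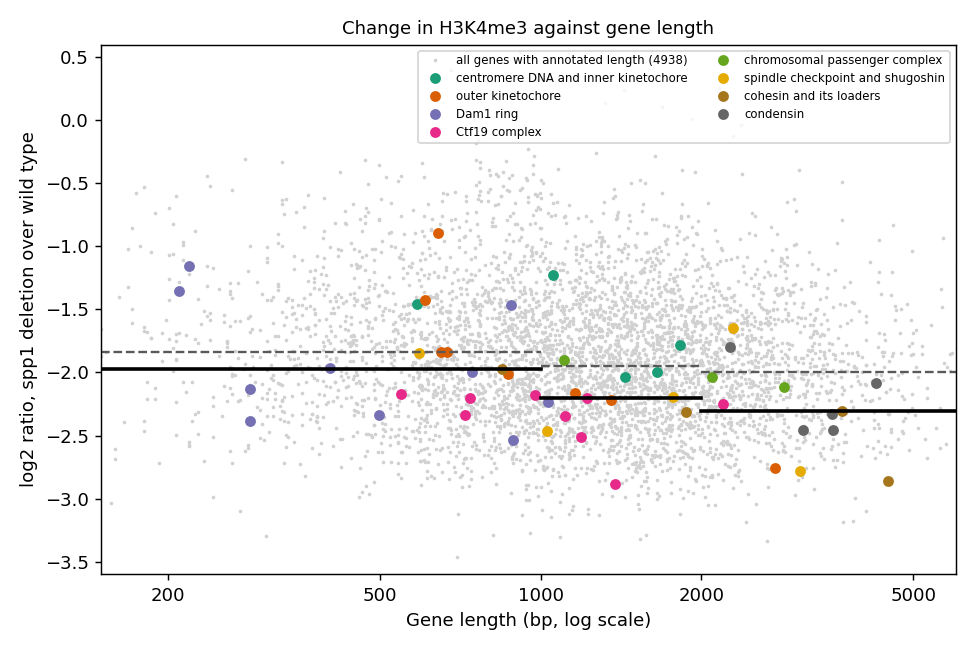
Log2 ratio of the H3K4me3 level, spp1 deletion over wild type (vertical axis), against annotated gene length in bp (horizontal axis, log scale) for members by role and for all genes in light grey. Some of the other genes lie outside the axes shown. Horizontal lines are medians in 3 length classes for members (solid) and all genes (dashed), and the solid line lies lower in each class.

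MCM21, DAD4, YCG1 and SKP1 lie within 22.3 kb of each other on the right arm of chromosome IV (1103758 to 1126018), and they alternate between low and high ratios. In order along the chromosome they lay at 17.5%, 44.8%, 18.2% and 36.5% of wild type. The gaps between neighbouring members were 3.33, 8.63 and 5.20 kb, and their log2 ratios differed by 1.36, 1.3 and 1.0. The 7 other genes with both levels in this stretch were less spread, from 20.2% to 31.9%, with a median of 26.2%. The direct neighbours of DAD4, SWA2 and ASP1, lay at 26.5% and 26.2%. ECO1 and SMC2 on chromosome VI lay 8.30 kb apart, at 25.5% and 19.9%, and OKP1 and BUB1 on chromosome VII 17.1 kb apart, at 21.7% and 14.6%.

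**Figure D5:**
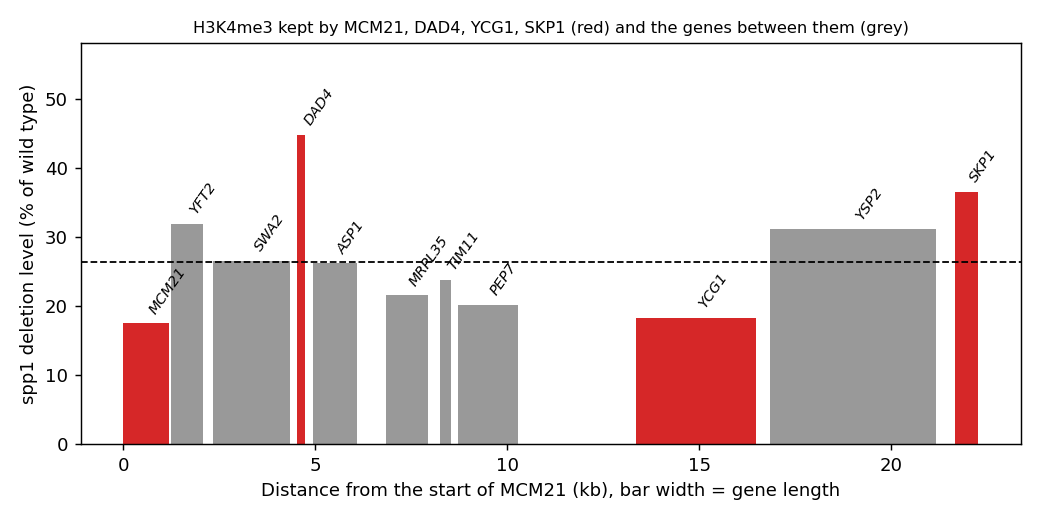
Level in the spp1 deletion strain as a percentage of wild type (vertical axis, from 0) along the stretch of chromosome IV that holds 4 members, against the distance from the start of MCM21 in kb. Bar width is gene length, members are red, the other genes with both levels are grey and the dashed line is the median of all genes, 26.3%. DAD4 and SKP1 stand above the line and above every grey bar, and MCM21 and YCG1 below it.

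Each member was also set against the next protein-coding gene on its upstream side, which for genes on opposite strands shares the promoter region. Both levels were present for 44 such neighbours, whose median was 26.8% of wild type. The member kept less than its upstream neighbour in 33 of the 44 pairs (75.0%), against 50.2% of pairs over all genes. The share over all genes lies near 50% by construction, since most genes serve both as gene and as neighbour. As 35 of the 49 members lay below the median ratio of all genes, the members' share is not separate evidence of a local difference. By strand, that was 13 of 19 pairs on opposite strands (68.4%) and 20 of 25 on the same strand (80.0%). Divergent pairs named here were picked after their values were seen. SPC105 and PAN2, a poly(A) nuclease gene, point away from each other across 420 bp and lay at 14.8% and 30.5%. SCC4 and SPT15, the TATA-binding protein gene, do so across 460 bp and lay at 20.1% and 39.5%. Other divergent pairs were alike, such as IML3 and AIM3 at 21.7% and 21.6%. MAD2 kept more than its divergent neighbour BET4, 27.8% against 18.7%. Ratios of members and upstream neighbours had a Spearman correlation of 0.052 over the 44 pairs and of 0.10 over the 4344 pairs of all genes. Some members next to genes that kept over 50% of the mark, picked out after their values were seen, kept far less. SMC2 lies 400 bp downstream of the ribosomal protein gene RPL2A (51.7%) and kept 19.9%, and MTW1 lies 282 bp downstream of the translation initiation factor gene FUN12 (60.8%) and kept 24.8%. BRN1 lies 303 bp downstream of BNA4 (58.1%), a gene with a wild-type level of 0.459, and kept 28.7%, above the median of all genes. On the downstream side the member kept less in 28 of 46 pairs (60.9%), against 49.5% over all genes, with the same limit.

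Members that a yeast cell cannot live without were compared with those it can lose, as known from textbook genetics. The 36 needed for viability had median levels of 2.14 in wild type and 0.477 without Spp1, with a median ratio of 24.4%, and 21 lay below 25% (58.3%, against 44.6% of all genes). The 13 not needed had median levels of 2.07 and 0.40, with a median of 21.0%, and 11 lay below 25% (84.6%). Of the 13, 7 belong to the Ctf19 complex, and the part of that complex in the split was not tested. The exceptions among the 13 were CBF1 and MAD2, at 42.6% and 27.8%.

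Other genes of the same processes were listed by function, with earlier results of these data known, as a background to the members. Of 17 further kinetochore, cohesin and passenger genes, 14 had both levels. Their median was 22.1% of wild type (log2 ratio -2.18, a difference of -0.25 from all genes). Below 25% lay 12 of the 14 (85.7%, against 44.6% of all genes). SMC3, the partner of Smc1 in cohesin, had levels of 1.71 and 0.275 (16.0%), and MCD1, the cohesin kleisin, had 2.20 and 0.508 (23.0%). SCM3, the chaperone that places Cse4 at centromeres, lay at 13.9%, and NKP2, a Ctf19 complex gene, was the lowest of the list at 13.0%. CNN1, the yeast CENP-T, lay at 18.2%. PSH1, a ubiquitin ligase gene for Cse4, was the most marked of the list in wild type, at 2.33, and kept 23.6%. The highest ratio was that of MHF1, at 33.1%. MCD1, SCM3 and MHF2 of this list are on the left arm of chromosome IV.

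Of 16 spindle pole body genes, 15 had both levels, with a median of 23.3% (difference -0.17) and 8 below 25% (53.3%, against 44.6% of all genes). They ran from SFI1 at 16.9% to CDC31, the yeast centrin, at 46.3%, and NUD1, the most marked in wild type, lay at 25.7%. Of 16 genes for microtubules, motors and spindle proteins, 15 had both levels, with a median of 26.3%, as for all genes, and 7 below 25% (46.7%, near the share of all genes). TUB2 (beta-tubulin), the most marked in wild type, lay at 34.3%, TUB3, a minor alpha-tubulin gene, at 14.9% and VIK1, a partner of the kinesin Kar3, at 35.9%. Of 26 genes for the anaphase-promoting complex, separase and mitotic exit, 22 had both levels, with a median of 23.3% (difference -0.17) and 13 below 25% (59.1%). CDC15, a mitotic exit kinase gene, lay at 17.6% and CDH1, the most marked in wild type, at 22.3%, and APC11, on the left arm of chromosome IV, at 78.1%. No test set these lists against the members.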

How the data were processed

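The authors deposited 1 normalised H3K4me3 signal per gene for each H3K4me3 library, per the file headers. Chromatin came from nuclei digested with micrococcal nuclease and was precipitated with 10 µL of antibody, per the labels' protocols. The submitters' processing notes name Bowtie2, SAMtools and bedtools and the builds sacCer3 and ASM294v2. The sources used here give no tool versions and do not say how reads became levels or whether the input entered them. The values are not counts, so depth is unknown and counting error could not be estimated.

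The table named 5219 genes, of which 5116 matched the RefSeq annotation (assembly R64), the source of symbols, 1-based coordinates and lengths. Log2 ratios were taken without a pseudocount, and low levels were kept. Intervals of medians are 95% binomial order-statistic intervals over genes. With 1 library per strain there was no test. Calculations used Python 3.11.15, pandas 2.3.3 and NumPy 2.4.6, and the ratio summary was tested on simulated data. The members, role groups and other lists were chosen with earlier results of these data known. Every member is named, and from each other list the most marked gene in wild type and both extremes of the ratio. CNN1, MCD1, MHF2, NKP1, SCM3, SMC3 and WIP1, the neighbour pairs and the length classes were chosen after values were seen. A planned search for promoter motifs was not made. Alternatives covered a pseudocount, floors on low levels, scaling, means, classes by level or length, background, and the exclusion of some genes.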

Additional observations from a re-analysis of the deposited data

How the results depend on the processing

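The difference of the members' median log2 ratio from that of all genes, -0.24, was negative under all 11 settings tried, from -0.40 among the 31 members in the upper 50% of wild-type levels to -0.19 with a pseudocount of 0.201 added to both levels. In that upper part the members' median wild-type level was 2.19. There 21 of 31 lay below 25% (33.3% of all genes there) and 0 at or above 50% (7.7% of all genes there). The differences were -0.33 for the outer kinetochore, -0.33 for the passenger complex (1 gene left), -0.55 for condensin and -0.055 for microtubule genes. The pseudocount gave a members' median log2 ratio of -1.76, 6 members below 25% (8.3% of all genes) and 2 at or above 50% (12.0% of all genes). Its differences were -0.0056 for the outer kinetochore and -0.046 for microtubule genes. When libraries were scaled to their own totals, the members' median log2 ratio was -0.41 (-0.17 for all genes). Then 0 members lay below 25% (0.0992% of all genes) and 46 at or above 50% (96.7% of all genes). The members' median levels, in units of each library's mean, were 1.11 and 0.841. Such scaling cancels in the difference from all genes and could not move it. Counting genes with identical levels once removed no member and left the difference at -0.24. Background subtraction gave a members' median of -2.43 and -0.036 for the outer kinetochore. Means in place of medians gave -0.0091 for the outer kinetochore and -0.17 for microtubule genes. Subtracting level-class medians gave 2 members at or above 50% and -0.11 for microtubule genes, and length-class medians gave -0.076 for the outer kinetochore. The outer kinetochore and microtubule lists sat at the all-gene median, so their sign is not fixed. A threshold of 20% left 14 members (28.6%, against 21.6% of all genes), and 40% left 3 (6.12%, against 14.2%). The other 163 values kept their sign and stayed within their interval over genes (the range for groups under 6), or within 1.5 times for counts. No paired analysis was possible because each strain had 1 library, so no library could be left out either.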
